A study of Triticum aestivum and Triticum urartu with 56 samples.

Results

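The genes described here are 200 wheat genes that were nearly silent in root and embryo RNA-seq and transcribed in the spike of every control plant. These genes had a mean spike level of at least 0.5 of the control mean in plants carrying an RNA interference construct. They were chosen by measured values: at most 5 read counts in the root and embryo libraries together, absence from the 318 genes that the study listed as targets of enhancer-like elements in RLG_famc7.3 retrotransposons, and a mean FPKM over the 4 RNAi lines of at least 0.5 of the mean over the 3 CK plants. FPKM are fragment counts scaled to gene length and library size, so levels of genes of different length can be set side by side. The 2362 genes that met these conditions and were above 0 FPKM in all CK libraries were ordered by their lowest CK value, and the top 200 of the 107891 genes in the tables were taken. Their low root and embryo counts, their high CK level and their ratio of mean RNAi to mean CK are therefore properties of the choice and are given as descriptions without a test.

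The RNAi group consisted of spikelets at booting (Feekes stage 10) from 4 transgenic lines of the T0 generation. They carry an RNA interference construct against the RNA of an enhancer-like element (ELE) in an RLG_famc7.3 retrotransposon. The CK group consisted of the same tissue and stage from 3 plants, which the labels and methods call wild type and the results of the study call transgenic negative controls. Each line was represented by 1 library, so differences between lines, between plants and between libraries cannot be told apart. The labels give the cultivar of both groups as Fielder, whereas the methods of the study name JW1. The root library came from plants of 9 days and the embryo library from 14 days after anthesis, both of cultivar Chinese Spring with 1 library each. CAGE, a method that counts the capped starts of transcripts, was available from Chinese Spring spike (2 libraries, Feekes stage 10), seedling (4, 9 days), embryo (3, 14 days after anthesis) and root (2, 9 days), and single lists of H3K4me3 and H3K9ac peaks from JW1 spikes.

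Bread wheat is an allohexaploid with the subgenomes A, B and D, and most genes have a related copy, a homoeologue, on the chromosome of the same number in each of the other subgenomes. The identifiers used here carry the chromosome (TraesCS2A is chromosome 2A), and their numbers run along it. Booting is the stage at which the spike, still enclosed in the leaf sheath, enlarges while its florets, anthers and ovaries mature, so a spike sample holds green bracts, floral organs and developing pollen together. RLG elements are LTR retrotransposons of the Gypsy superfamily, which fill much of the wheat genome and can carry sequences that act as enhancers of genes nearby. The tables pair no gene name, function or homoeologue with these identifiers, so the genes are described by identifier, position and values, and the tissue labels were not checked against marker genes.

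Depth differed between the spike libraries. Reads on genes, recovered from the FPKM steps, came to between 7215239 and 9849534 in the RNAi libraries. They came to 2492071, 4176655 and 8393204 in CK 1 to CK 3. The median of all 55551 genes with a mean of at least 0.5 FPKM had another order, at 3.54, 1.94 and 3.37 in CK 1 to CK 3. The read totals to which FPKM were scaled were 3176975, 8059276 and 9737702 in CK 1 to CK 3. In CK 2 a smaller part of this total lay on genes than in any other spike library, which lowers its FPKM over all genes. Why so few of its reads lay on genes was not tested. The 200 genes had a median of 494 to 904 reads in the RNAi libraries and of 207 to 1029.5 in the CK libraries. The lowest read count of any of them in a CK library was 9 and counting error was at most 33.3% of a CK value. CAGE libraries held between 2970800 and 24399682 tags, and their levels are given as RPM, tags scaled to the tag total of the library.

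The first question was whether the description of these genes as transcribed only in the spike held in the one tissue that the choice had not looked at, the seedling. It did not hold for 5 of the 6 genes that could be examined. CAGE start clusters with coordinates and gene identifiers were at hand for chromosome 1A, on which 6 of the 200 genes lie, and each of the 6 had exactly 1 cluster. At 5 of them, seedling gave a higher RPM than spike, in all 4 seedling libraries against both spike libraries, whereas embryo and root gave at most 1 tag in any library. TraesCS1A02G357700 was the only one with more tags in spike. The 200 genes are therefore called the kept genes below, and not spike-only genes.

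TraesCS1A02G306600 (chromosome 1A, 498597540 to 498597641, minus strand, IWGSC reference version 1.0) had 8.55 and 0.041 RPM in spike, against 397, 398, 249 and 163 in seedling. Its 2 spike libraries lay far apart, with 52 tags and 1 tag, and both were below every seedling library. TraesCS1A02G392000 (1A, 558591002 to 558591076, plus strand) had 2.96 and 0.451 RPM in spike, against 42.1, 93.2, 217 and 136 in seedling. TraesCS1A02G406500 (1A, 569133139 to 569133207, plus strand) had 11 and 8.16 RPM in spike, against 111, 151, 48.5 and 73.9 in seedling. In these 3 genes the mean over seedling was 70.3, 71.7 and 10.0 times the mean over spike.

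TraesCS1A02G403300 (1A, 566564096 to 566564148, plus strand), the gene with the second highest lowest CK value of all, had 0.164 and 0.328 RPM in spike, from 1 and 8 tags, against 2.82, 27.8, 7.37 and 11.9 in seedling. With the cluster widened by 100 bp, its log2 fold change of spike against seedling was -4.04, against -5.94 without widening. The spike values of the listed cluster therefore leave out tags that lie close to it. TraesCS1A02G403800 (1A, 566688674 to 566688781, plus strand) had 0 tags in both spike libraries, against 16.1, 0.359, 24.6 and 8.4 RPM in seedling. With 3 tags in each spike library as the floor (0.308 RPM on average), its seedling mean was at least 40.1-fold higher than its spike level. Both genes were strongly transcribed in the RNA-seq of CK spikes, at 1273, 324 and 2118 FPKM for TraesCS1A02G403300 and at 88.5, 33.2 and 286 FPKM for TraesCS1A02G403800. CAGE and RNA-seq were made on different plants and cultivars, and their part in this contrast was not tested.

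TraesCS1A02G357700 (1A, 540124801 to 540124806, minus strand) had 2.47 and 5.16 RPM in spike, against 1.72, 0, 0 and 0 in seedling. The seedling value of 1 library, 14 tags, was lower than both spike values. A count of 0 in the other seedling libraries allows up to 0.539, 0.491 and 0.332 RPM.

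**Figure D1:**
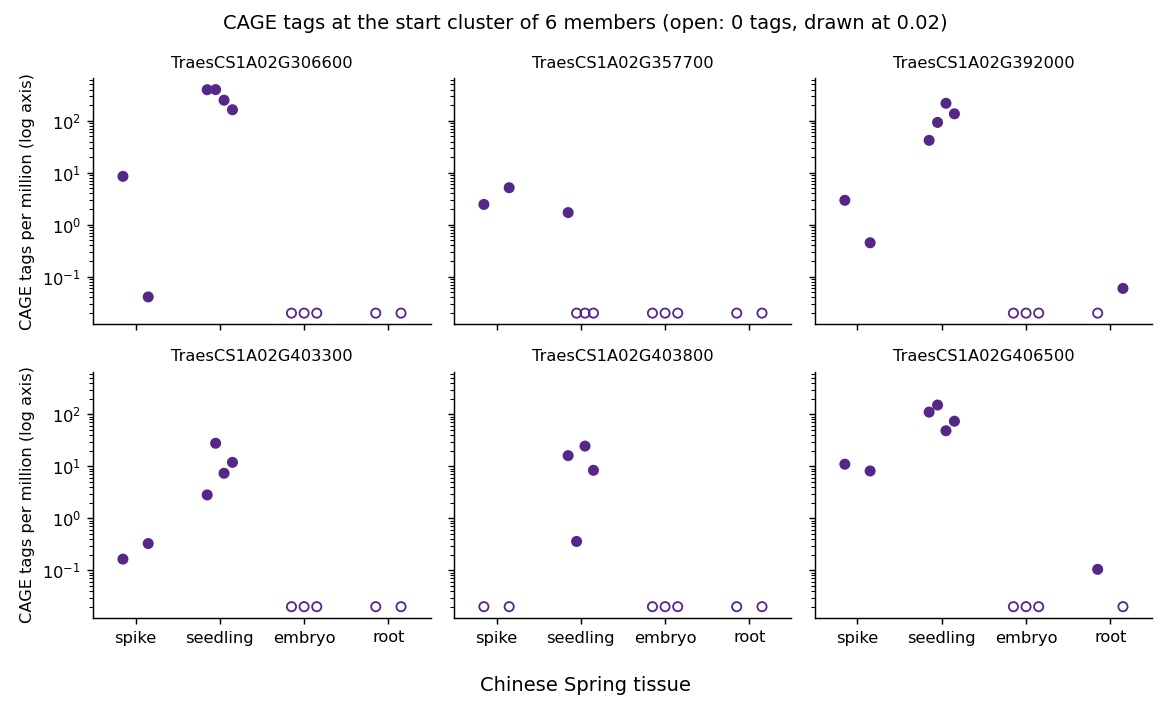
CAGE level in RPM (log axis) at the start cluster of the 6 kept genes on chromosome 1A, with 1 point per library of spike (2), seedling (4), embryo (3) and root (2); open points, drawn at the foot of the axis, are libraries with 0 tags. In 5 genes all seedling points lie above both spike points, and TraesCS1A02G357700 shows the opposite order.

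Over all 1490 chromosome 1A genes with at least 10 tags, edgeR's quasi-likelihood test with Benjamini-Hochberg adjustment (threshold 0.05, with a change of more than 1 on the log2 scale) called 2.62% of genes higher in spike than in seedling and 1.41% lower. None of the 6 kept genes was called higher (0 of 6, with no unadjusted p under 0.05 in that direction), and 1 was called lower, TraesCS1A02G392000 with a log2 fold change of -6.79 ± 1.43 (SE, adjusted p = 0.0322). TraesCS1A02G306600 (-6.78 ± 1.81, adjusted p = 0.0716), TraesCS1A02G406500 (-3.77 ± 1.1, adjusted p = 0.0908) and TraesCS1A02G403300 (-5.94 ± 1.96, adjusted p = 0.108) did not pass in edgeR. TraesCS1A02G403800 did not pass either (adjusted p = 0.0911), nor did TraesCS1A02G357700 (2.85 ± 2.38, adjusted p = 0.501). DESeq2 on the same counts called 5 of the 6 lower in spike than in seedling. It also called more genes lower over the whole chromosome, 143 of the 1490. Without spike replicate 1, without spike replicate 2 or without seedling replicate 3, TraesCS1A02G392000 no longer passed (adjusted p = 0.123, 0.218 and 0.0659).

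Against the mean log level of seedling, embryo and root, 6.24% of the 1490 genes were called higher in spike and 0.201% lower. Of the 6 kept genes 1 was called higher, TraesCS1A02G406500 (adjusted p = 0.0168), and 0 were called lower. That gene had 0 tags in embryo and 1 tag in root, so the mean of logs against which it was set is far below its seedling level, and a size of this difference is not given. The call was lost without spike replicate 1 (adjusted p = 0.0952) or without spike replicate 2 (adjusted p = 0.101). The nearly empty embryo and root libraries repeat, in separate samples, the low counts by which the genes had been chosen.

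The seedling excess was set beside that of other genes on the same chromosome. A seedling mean above the spike mean was found in 5 of the 6 kept genes (83.3%), in 6 of the 16 genes that met every condition but the rank and had a start cluster (37.5%), in 34.6% of the 133 genes of the kept genes' CK level with a cluster, and in 36.8% of all 1522 genes with a cluster. Among genes just as quiet in root and embryo and as high in CK, but with a mean RNAi level under 0.5 of mean CK, 3 on chromosome 1A had a start cluster. These were TraesCS1A02G113400, TraesCS1A02G208200 and TraesCS1A02G343400, and all had 0 seedling tags and between 1.07 and 5.64 RPM in spike. TraesCS1A02G343400 also had 1.21 RPM in root, above its 1.07 RPM in spike. With 6 and 3 genes no test of this difference was made.

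Active marks in JW1 spikes overlapped 4 of these 6 start sites, near the share over all genes with a cluster. An H3K4me3 peak, a mark of active promoters, overlapped the start cluster of 4 of the 6 genes, against 75.6% of the 1522 genes with a cluster, and an H3K9ac peak, an acetylation mark of active chromatin, also overlapped 4 of 6, against 61.6%. The 4 genes were the same for both marks: TraesCS1A02G306600, TraesCS1A02G392000, TraesCS1A02G403300 and TraesCS1A02G406500. At TraesCS1A02G403800 both peaks stopped short of the cluster, by 68 bp for H3K4me3 and 39 bp for H3K9ac. At TraesCS1A02G357700 the nearest H3K4me3 peak was 32 bp away and the nearest H3K9ac peak 25111 bp away. Within 500 bp of the cluster, 6 of 6 genes had an H3K4me3 peak, against 86.1% of the 1522 genes. An H3K9ac peak lay within 500 bp in 5 of 6, against 80.0%. The widest peaks were those over TraesCS1A02G403300, at 1195 bp for H3K4me3 and 1003 bp for H3K9ac.

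By the way they were chosen, the kept genes were among the most highly expressed genes of the spike. Their median was 56.6, 44.1, 74.1 and 74.1 FPKM in RNAi 1 to RNAi 4, against 61.8, 24.2 and 87.3 FPKM in CK 1 to CK 3. All genes with a mean of at least 0.5 FPKM had medians between 3.01 and 3.34 FPKM in the RNAi libraries and between 1.94 and 3.54 FPKM in the CK libraries, and in every library the median of the kept genes exceeded at least 95.9% of them. All genes with a lowest CK value as high as that of the last kept gene had medians of 28.9 to 32.7 FPKM in the RNAi libraries. In CK 1 to CK 3 their medians were 33.6, 17.8 and 33.1 FPKM. By mean, 2 of the kept genes reached 1000 FPKM in the RNAi lines and 2 in CK. Between 100 and 1000 FPKM lay 72 kept genes in the RNAi lines and 72 in CK. Together the 200 kept genes made up between 3.89% and 5.88% of the summed FPKM of an RNAi library and between 3.09% and 7.58% of a CK library. Spikes are mixtures of tissues, so fewer cells of a type and less RNA per cell cannot be told apart in any of these values.

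In root and embryo the same genes had 92 and 181 counts in all, out of 20705861 and 33911272 counts in those libraries. No count in either library was found for 85 of them, 140 had 0 counts in root and 110 had 0 in embryo. A count of 0 allows up to 0.145 CPM (counts scaled to the library total) in root and 0.0885 CPM in embryo.

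**Figure D2:**
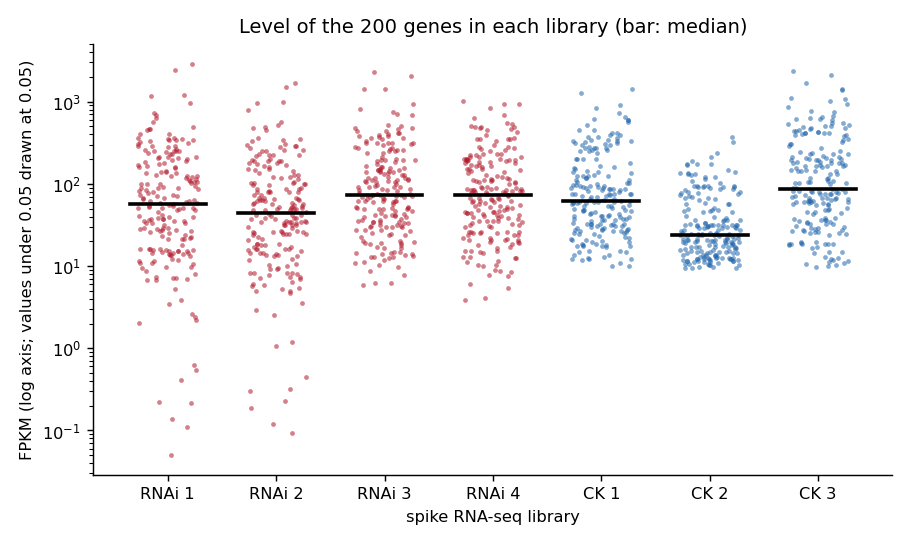
FPKM (log axis) of the 200 kept genes in the 4 RNAi and the 3 CK spike libraries, 1 point per gene and a bar at each library's median. Medians range from 44.1 to 74.1 FPKM in the RNAi libraries and from 24.2 to 87.3 FPKM in CK, and the points near 0 are found in RNAi 1 and RNAi 2.

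The highest-ranked gene was TraesCS5D02G357600 on chromosome 5D, with 2395, 1665, 2320 and 489 FPKM in RNAi 1 to 4, against 1411, 376 and 2329 FPKM in CK 1 to 3. TraesCS1A02G403300 came next, with 2904, 1526, 2060.5 and 281 FPKM in the RNAi lines. TraesCS1B02G432700 on chromosome 1B had 1205, 1001, 1444 and 229 FPKM in the RNAi lines, against 917, 235 and 1699 FPKM in CK. In all of these RNAi 4 was the lowest line by a wide margin, and CK 2 the lowest control, and the groups overlapped.

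TraesCS1D02G411300 on chromosome 1D followed the same pattern, with 1175, 959, 1420 and 188 FPKM in the RNAi lines, against 831, 213 and 1434 FPKM in CK. Its 7 values and those of the 1A and 1B genes just named had the same lowest line and the same order of the CK libraries. TraesCS2A02G344600 on chromosome 2A was more even, at 693, 565, 814 and 510 FPKM in the RNAi lines, against 736, 190 and 1378 FPKM in CK.

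Because the genes were selected on a mean, single lines could still be low. The ratio of mean RNAi to mean CK had a median of 0.979 and ran between 0.5004 and 4.2, with 95 genes at 1 or above and 8 at 2 or above. Among all 4386 genes with a lowest CK value as high as that of the last kept gene, 91.5% had a ratio of at least 0.5, whereas 200 of the 323 such genes that were quiet in root and embryo did (61.9%), and the other 123 were below. None of the 323 was on the target list. Of the 200, 101 had every line at 0.5 of mean CK or more (50.5%), 52 had 1 line below, 40 had 2 and 7 had 3. Of all genes of that CK level with a ratio of at least 0.5, 79.6% had no line below, and their median ratio was 1.19.

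The low lines were mostly RNAi 1 and RNAi 2. A level under 0.5 of mean CK was found in 48 genes in RNAi 1, 65 in RNAi 2, 7 in RNAi 3 and 33 in RNAi 4, or 24%, 32.5%, 3.5% and 16.5%. Over all 4386 genes of that CK level the shares were 15.1%, 16.4%, 8.8% and 14.1%. A level under 0.1 of mean CK was found in 8, 13, 0 and 2 of the kept genes (4%, 6.5%, 0% and 1%), beside 3.56%, 4.04%, 2.1% and 2.42% of the 4386. RNAi 2 was the lowest line in 97 kept genes (48.5%, beside 25.8%) and RNAi 4 in 70 (35%, beside 24.8%). RNAi 4 was also the highest line in 92 (46%, beside 50.4%), a share below that over all genes of that level.

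In 14 genes at least 1 line was below 0.1 of mean CK, so that the mean of the group was carried by the other lines. TraesCS6D02G031500 had 0.215, 0.0921, 105 and 85.5 FPKM in RNAi 1 to 4, against 97.4, 46.7 and 25.1 FPKM in CK. TraesCS6B02G039200 had 0.11, 0.188, 108 and 52.2 FPKM in the RNAi lines, against 126, 46.9 and 43.0 FPKM in CK. These 2 genes, on chromosomes 6D and 6B, had the widest spread between RNAi lines of all, with an SD of 3.68 and 3.52 on the log2(FPKM + 1) scale.

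TraesCS6A02G098200 on chromosome 6A had 0, 0.303, 141 and 4.13 FPKM in RNAi 1 to 4, against 106, 27.1 and 26.1 FPKM in CK, and was the only gene with 3 lines below 0.1 of mean CK. On chromosome 2B, TraesCS2B02G028000 had 0.138, 0.119, 35.6 and 115 FPKM in the RNAi lines, against 81.4, 16.9 and 59.5 FPKM in CK. Near it by number, TraesCS2B02G028500 had 0.627, 0.323, 34.1 and 118 FPKM in the RNAi lines, against 91.0, 20.01 and 47.6 FPKM in CK. Both genes stood below every control in RNAi 1 and 2 and above every control in RNAi 4.

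The opposite case was TraesCS5A02G402600 on chromosome 5A, with 110, 80.2, 104 and 8.51 FPKM in RNAi 1 to 4, against 92.2, 29.4 and 165 FPKM in CK, where RNAi 4 alone was low. RNAi 4 was more than 2-fold above the mean of RNAi 1 and 2 in 69 of the kept genes (34.5%) and more than 2-fold below it in 35 (17.5%), with 1 added to each FPKM. Over the 4386 genes of that CK level the shares were 14.4% and 10.6%. The 69 genes had medians of 28.3, 21.1, 66.2 and 113 FPKM in RNAi 1 to 4, against 73.3, 24.5 and 72.0 FPKM in CK, and the 35 genes had 116, 87.4, 128 and 35.4 FPKM in the RNAi lines, against 60.5, 21.4 and 165 FPKM in CK.

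**Figure D3:**
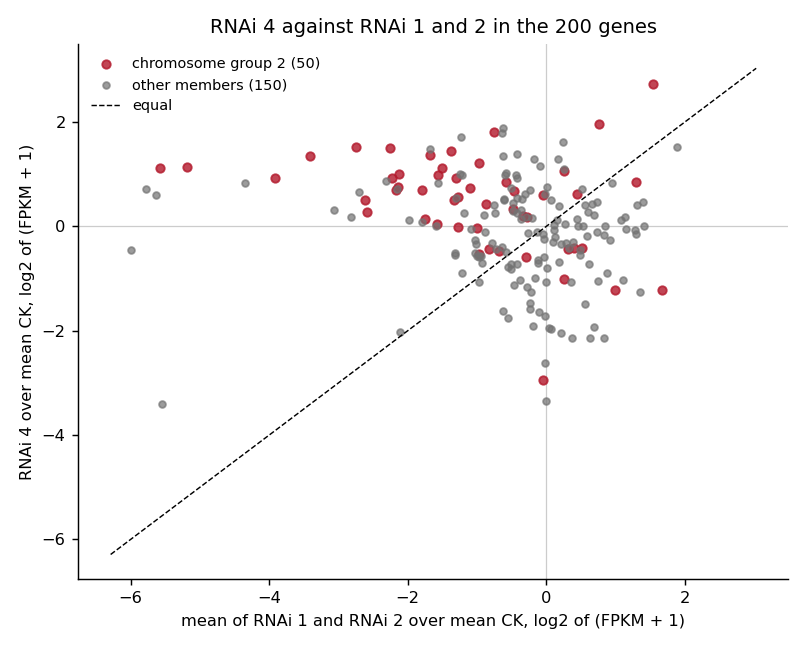
For each of the 200 kept genes, the log2 ratio of RNAi 4 to mean CK (vertical axis) against that of the mean of RNAi 1 and 2 to mean CK (horizontal axis), both on FPKM + 1; red points are the 50 genes of chromosome group 2. Genes above the dashed line are higher in RNAi 4 than in RNAi 1 and 2, as 31 of the 50 red points are by more than 2-fold.

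Across the 200 genes, log2(FPKM + 1) of RNAi 1 and RNAi 2 correlated at r = 0.97, whereas RNAi 4 correlated with them at 0.56 and 0.52 and with RNAi 3 at 0.74. The 3 CK libraries correlated at 0.87 (CK 1 and CK 2), 0.90 (CK 1 and CK 3) and 0.78 (CK 2 and CK 3). CK 2 stood apart over the 4386 genes of the same CK level, at 0.54 with CK 1, 0.45 with CK 3 and 0.25 to 0.37 with the RNAi lines, while CK 1 and CK 3 correlated at 0.92. These values are across genes, which are no independent replicates and share the libraries' composition. Over the same 4386 genes RNAi 1 and RNAi 2 correlated at 0.96, near the value in the kept genes. RNAi 4 correlated there with RNAi 1, RNAi 2 and RNAi 3 at 0.76, 0.72 and 0.82.

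All 4 RNAi lines lay above all 3 CK plants in 3 of the kept genes (1.5%) and below them in 7 (3.5%). Over the 55551 genes with a mean of at least 0.5 FPKM, the shares were 10.8% and 4.72%. The choice of members used this contrast, so nothing is read from these counts. TraesCS2A02G396300 on chromosome 2A, the gene with the highest ratio, had 36.3, 34.4, 40.2 and 81.7 FPKM in the RNAi lines, against 13.7, 10.5 and 10.3 FPKM in CK. TraesCS2A02G411500, the next by ratio, had 88.6, 79.0, 318 and 193 FPKM in the RNAi lines, against 32.4, 12.8 and 102 FPKM in CK, with RNAi 1 and 2 inside the range of the controls.

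The other genes with all lines above CK were TraesCS1D02G374900, at 135, 98.3, 85.6 and 90.4 FPKM in the RNAi lines, against 19.7, 11.8 and 60.6 FPKM in CK, and TraesCS3A02G085200, at 37.6, 41.3, 43.4 and 35.8 FPKM in the RNAi lines, against 22.0, 31.3 and 26.4 FPKM in CK. Among the 7 with all lines below CK, the ratio ran between 0.528 and 0.645. TraesCS7A02G282100, for one, had 27.1, 15.3, 23.8 and 26.1 FPKM in the RNAi lines, against 33.0, 36.2 and 38.1 FPKM in CK.

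The limits of the choice fell among genes of like values. The last gene inside was TraesCS2A02G067000, with a lowest CK value of 9.42 FPKM, after TraesCS5D02G464900 with 9.45, and the first outside were TraesCS6D02G397200 with 9.26 and TraesCS2B02G006700 with 9.19. By ratio, the genes just inside were TraesCS2A02G035100 at 0.5004 and TraesCSU02G077300 at 0.504, and those just outside TraesCS3D02G354300 at 0.476 and TraesCS6D02G299200 at 0.470. TraesCS2A02G035100 had 14.5, 7.41, 33.1 and 86.3 FPKM in the RNAi lines, against 123, 24.5 and 64.1 FPKM in CK. CK 2 supplied the lowest CK value in 170 of the 200 genes (85%), against 69.1% of all genes of that CK level, so the order of the list rests mostly on this one library.

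The spread between plants was wide, with the larger median in CK when all libraries were used. The median SD of log2(FPKM + 1) was 0.649 over the 4 RNAi lines and 1.1 over the 3 CK plants, beside 0.370 and 0.865 for the 12355 genes with a mean FPKM inside the range of the kept genes (8.63 to 1569). An SD above 1 was found in 57 kept genes in the RNAi lines (28.5%, beside 12.3% of the 12355) and in 116 in CK (58%, beside 38.7%), and the SD was larger in the RNAi lines than in CK in 72 of the 200. CK 2 was at a median of 0.357 times CK 1 in these genes, beside 0.542 times over the genes of that CK level, and CK 3 at 1.48 times CK 1, beside 1.05. Both medians rested on 1 library each: without CK 2 the median SD in CK was 0.460, and without RNAi 4 that in the RNAi lines was 0.394. With libraries scaled to one median, the median SD was 0.807 in CK and 0.649 in the RNAi lines.

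The steadiest genes across RNAi lines were TraesCS7A02G285700 and TraesCS3B02G413700. TraesCS7A02G285700 had 14.3, 14.6, 13.8 and 14.7 FPKM in RNAi 1 to 4 (SD of 0.0346 on the log2 scale), against 13.5, 22.1 and 12.3 FPKM in CK. TraesCS3B02G413700 had 213, 187, 213 and 189 FPKM in the RNAi lines (SD of 0.103), against 180, 49.7 and 325 FPKM in CK. In both the RNAi lines lay within the range of the CK plants.

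The kept genes came from all 21 chromosomes. Subgenome A held 68 (34%), B 69 (34.5%) and D 61 (30.5%), and 2 genes had no chromosome in their identifier, beside 32.8%, 33.0%, 31.7% and 2.49% of all 107891 genes. By chromosome group the largest number, 50 (25%), lay in group 2, which holds 16.5% of all genes and 16.6% of the 4386 genes of that CK level, followed by 35 (17.5%) in group 6, beside 11.8%, and 34 (17%) in group 5, beside 15.4%. Group 3 held 19 (9.5%, beside 15.3%) and group 4 held 14 (7%, beside 11.4%). Within group 2 the counts were 18 on 2A, 17 on 2B and 15 on 2D. Of the 123 genes equally quiet and equally high in CK that were not kept, 16 (13.0%) lay in group 2 and 31 (25.2%) in group 3. Neighbouring genes are not independent draws, and the shares are given as a description.

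**Figure D4:**
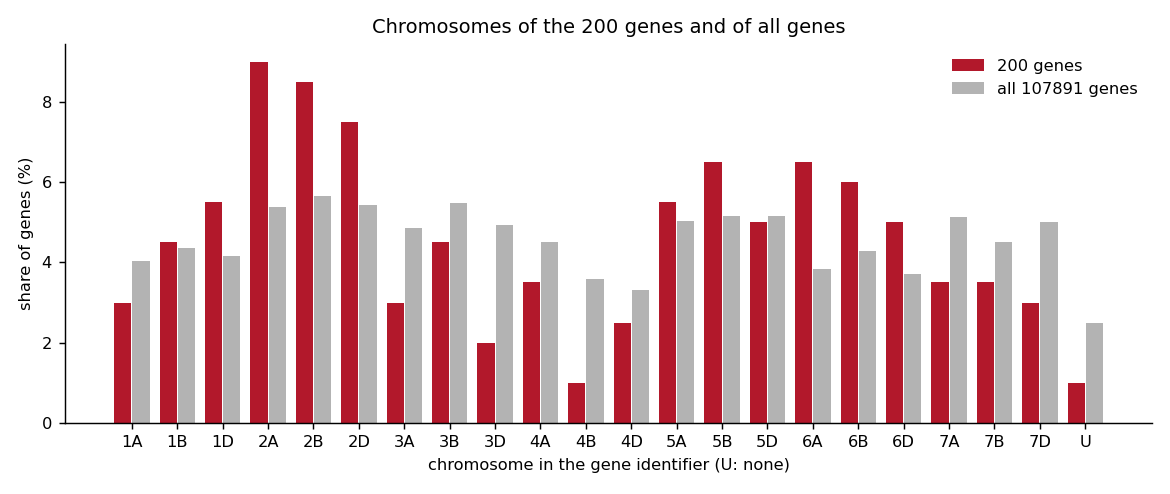
Share of the 200 kept genes (red) and of all 107891 genes (grey) on each chromosome, as named in the gene identifiers (U, no chromosome). Chromosomes 2A, 2B and 2D hold 9%, 8.5% and 7.5% of the kept genes, beside 5.37%, 5.66% and 5.44% of all genes.

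Some of the kept genes were neighbours. The share of genes in runs was not computed for other sets of genes, so the counts are a description only. With runs defined as genes that follow each other in the ordered list of identifiers, 36 of the 200 genes (18%) fell into 10 runs, of which 4 had 4 or more members. The longest run was 7 consecutive genes on chromosome 2A, TraesCS2A02G066700 to TraesCS2A02G067300. A run of 5 on 2B, TraesCS2B02G079100 to TraesCS2B02G079500, and 4 genes on 2D between TraesCS2D02G065100 and TraesCS2D02G065600 lay at similar numbers on the other chromosomes of the group. Whether the 3 stretches are homoeologous is not given by the tables and was not tested.

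In the 2A run, TraesCS2A02G066700 had 214, 129, 392 and 1013 FPKM in RNAi 1 to 4, against 457, 134 and 938 FPKM in CK. TraesCS2A02G066800 had 200, 100, 362 and 844 FPKM in the RNAi lines, against 523, 172 and 867 FPKM in CK. TraesCS2A02G066900 had 67.7, 33.6, 153 and 454 FPKM in the RNAi lines, against 200, 134 and 386 FPKM in CK. In each of them RNAi 2 was the lowest line and RNAi 4 the highest.

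TraesCS2A02G067000 had 13.7, 5.23, 36.2 and 140 FPKM in the RNAi lines, against 48.4, 9.42 and 89.2 FPKM in CK. TraesCS2A02G067100 had 28.3, 13.8, 59.6 and 163 FPKM in the RNAi lines, against 74.7, 46.1 and 168 FPKM in CK. TraesCS2A02G067200 had 62.1, 34.9, 114 and 349 FPKM in the RNAi lines, against 118, 66.4 and 197 FPKM in CK. The same order of lines, RNAi 2 below RNAi 1 below RNAi 3 below RNAi 4, was kept in these genes.

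TraesCS2A02G067300, the last of the run, had 160, 104, 251 and 471 FPKM in the RNAi lines, against 276, 114 and 461 FPKM in CK. The genes on either side were low: TraesCS2A02G066600 had at most 1.17 FPKM in any of the 7 libraries and TraesCS2A02G067400 at most 5.95 FPKM. RNAi 2 was the lowest and RNAi 4 the highest line in 7 of 7 genes of the 2A run and in 5 of 5 of the 2B run. The ratios of mean RNAi to mean CK ran between 0.688 and 1.1 on 2A and between 0.582 and 1.52 on 2B.

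On chromosome 2D, TraesCS2D02G065100 had 191, 116, 357 and 946 FPKM in the RNAi lines, against 375, 168 and 770 FPKM in CK, in the same order of lines. Its neighbour TraesCS2D02G065200 had 200, 86.9, 340 and 767 FPKM in the RNAi lines, against 551, 287 and 825 FPKM in CK, and missed the list only because it had 6 counts in root and embryo. TraesCS2D02G065500, also between the members, was lower, at 5.05, 2.27, 7.05 and 33.6 FPKM in the RNAi lines, against 6.32, 1.49 and 19.2 FPKM in CK. Its lines followed the order of the members around it.

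Runs on other chromosomes had other orders. In the run of 5 on 6A, TraesCS6A02G094200 to TraesCS6A02G094600, RNAi 4 was the lowest line in 5 of 5 genes. In the run of 4 on 5B, TraesCS5B02G462800 to TraesCS5B02G463100, RNAi 4 was lowest and RNAi 1 highest in 4 of 4, with ratios between 1.39 and 2.16. A run of 3 on 5D, TraesCS5D02G464700 to TraesCS5D02G464900, and one of 2 on 5A, TraesCS5A02G454200 and TraesCS5A02G454300, likewise had RNAi 1 as the highest line in every gene, with ratios between 1.56 and 2.3 on 5D and between 1.5 and 1.79 on 5A. TraesCS5B02G462900, the 5B gene with the highest ratio, had 154, 147, 141 and 80.7 FPKM in the RNAi lines, against 43.5, 19.0 and 119 FPKM in CK, so that CK 3 lay above RNAi 4.

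**Figure D5:**
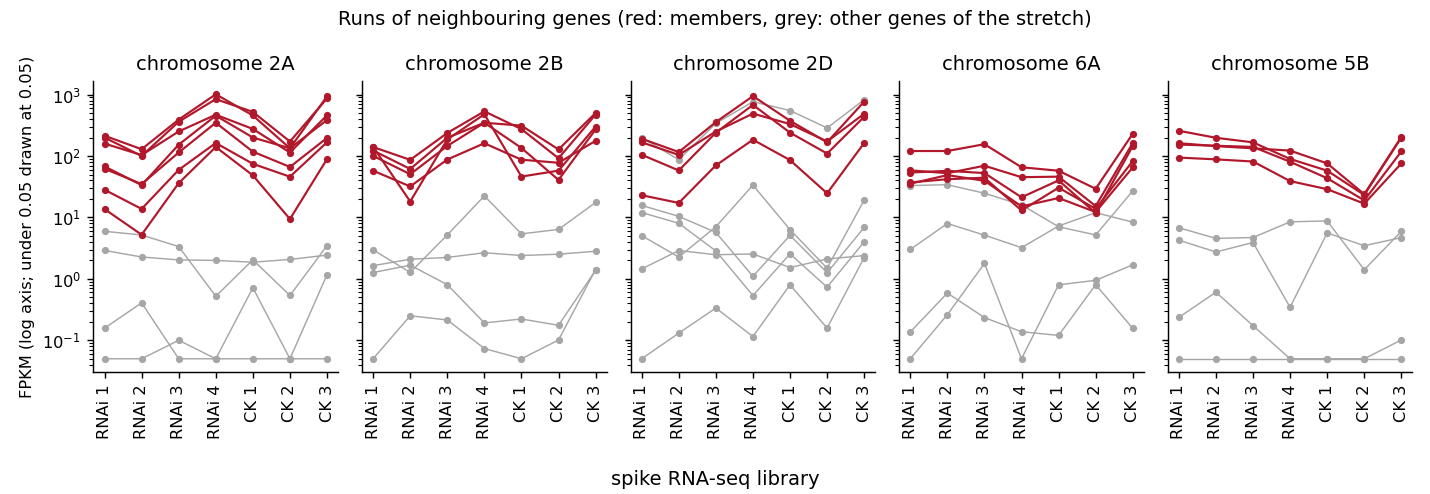
FPKM (log axis) in the 4 RNAi and the 3 CK libraries for the kept genes (red) of 5 stretches of neighbouring genes, with the other genes of the stretch and 2 genes on either side (grey). The red lines of the 2A, 2B and 2D stretches share their lowest RNAi line (RNAi 2) and their highest (RNAi 4), whereas RNAi 4 is the lowest line on 6A and 5B.

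Over the whole list, groups 2 and 5 held the highest and the lowest share of genes with RNAi 4 above RNAi 1 and 2. RNAi 4 exceeded the mean of RNAi 1 and 2 more than 2-fold in 31 of the 50 genes of group 2 (62%, beside 17.7% of the genes of that CK level in the group) and was more than 2-fold below it in 4 (8%, beside 8.79%). In group 5 these numbers were 2 of 34 (5.88%, beside 11.8%) and 9 of 34 (26.5%, beside 16.3%). The share above was 30.8%, 26.3%, 28.6% and 30% in groups 1, 3, 6 and 7, near the 34.5% of all kept genes. Among the genes of that CK level in these groups it was 13.2%, 15.6%, 13.0% and 13.5%. In group 4 it was 7 of 14 genes (50%, beside 14.95%). The share below was highest in group 1, at 10 of 26 genes (38.5%, beside 11.5%). RNAi 2 was the lowest line in 34 of the 50 genes of group 2, while RNAi 4 was the lowest in 23 of the 34 genes of group 5. The runs described above supply part of these counts, and no test over genes was made.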

How the data were processed

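Spike RNA-seq of 4 RNAi lines and 3 CK plants, RNA-seq of root and embryo, CAGE of 4 tissues and 2 peak lists were used. The authors deposited FPKM per gene for the spike libraries, made with Trim Galore 0.6.4, HISAT2 2.1.0 and featureCounts on IWGSC high-confidence genes (models 1.1), and raw read counts per gene for root and embryo. The deposited CAGE files hold, for each base and strand, the counts of transcript starts from uniquely mapped reads (Bowtie2 2.3.5, IWGSC reference 1.0), and the peak lists hold positions without scores (bwa and MACS2 in the methods). Chromosomes were cut into pieces in these files, and the offset of the second piece of 1A was read from the study's cluster list. The tag sums of 1992 of 1992 listed clusters then equalled the listed levels within 0.001 RPM.

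FPKM were used as deposited, and the pseudocount on the log2 scale was 1. Whole reads behind the FPKM were recovered for all 200 genes, with the read totals of the study setting the scale. The step was tested on simulated data, where 99.3% of 3000 sets of values came back exactly. CAGE tags were summed per gene over its listed clusters (1522 genes of chromosome 1A, since that list was readable for this chromosome only) and fitted with edgeR 4.0.16 (R 4.3.3), with TMM factors and 1 coefficient per tissue, for genes with at least 10 tags. On simulated counts over 1490 genes, genes 8-fold higher in spike than elsewhere were called in 94% of cases against seedling and genes 8-fold lower in 74%. At 4-fold these shares were 60% and 38%. They cannot be taken to hold for the kept genes. The seedling mean of TraesCS1A02G306600 was 70.3 times its spike mean, and edgeR did not call it. The labels do not say that CAGE replicates came from separate plantings, so these p-values measure only the spread between libraries. Intervals and limits cover counting error only.

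The members and all lists were chosen with earlier results of these data known. Genes named are the 5 of highest rank, those of the 2 highest and 2 lowest ratios, of the 2 widest and 2 narrowest RNAi spreads, those at the limits, all with a start cluster, and the longest run. Other genes named as examples of a low line, of groups without overlap or of another run, and the 3 chromosome 1A genes that were not kept, were chosen after their values were seen. Alternatives were no TMM, DESeq2 1.42.0, other tag filters, wider clusters, a replicate block, other scalings, other limits of the choice and each library left out. No per-sample column was left unmatched. The G1812 CAGE files were not used, and no sequence of these genes was at hand.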

Additional observations from a re-analysis of the deposited data

Results flagged for a closer look

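Of 35 groups of 4 samples examined for an outlying value, 2 held one by Dixon's test at the 95% level, which chance alone gives for about 1 in 20 groups. In TraesCS2A02G396300, RNAi 4 (81.7 FPKM) stood above the other lines (34.4 to 40.2 FPKM), with the gap filling 0.877 of the group's range. In TraesCS1A02G357700, 1 seedling CAGE library (14 tags, 1.72 RPM) stood above the other 3 at 0 tags, so the gap filled the whole range (1).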

How the results depend on the processing

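The median log2 ratio of RNAi to CK (-0.03) ran between -0.36 (without CK 2) and 0.45 (without CK 3) when 1 library was left out, and between -0.25 and 0.09 under other scalings, pseudocounts and limits of the choice. The median log2 ratio of all genes was 0.22 as deposited, 0.05 with libraries scaled to one median and 0.09 after quantile normalization, while that of the kept genes was -0.03, -0.14 and -0.25. Genes with all RNAi lines above CK numbered between 3 and 30 when 1 library was left out (30 without CK 3, 10 without RNAi 4), 7 with a root and embryo limit of 0 counts, 1 with a limit of 10, 0 in the top 100 and 10 in the top 400. Genes with all lines below CK numbered between 7 and 25 when 1 library was left out (25 without CK 2, 22 without RNAi 4), 15 after quantile normalization, 4 with a limit of 0 counts, 3 in the top 100 and 4 when ranked by mean CK. The median SD in CK ran between 0.460 (without CK 2) and 1.42 (without CK 1), and that in the RNAi lines (0.649) between 0.394 (without RNAi 4) and 0.719 (without RNAi 3). With 0 counts as the limit 85 of the 200 genes were shared, with 10 counts 153, when ranked by mean CK 172, and without CK 2 in the ranking 155.

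For CAGE, the number of the 6 genes called higher in spike than over seedling, embryo and root was 0 without either spike library and 2 without seedling replicate 1, and the number called lower in spike than in seedling ran between 0 (without spike replicate 2) and 3 (without root replicate 2). DESeq2 called 5 lower than in seedling, and a replicate block called 2. The log2 fold change of TraesCS1A02G306600 against the mean of the other tissues (3.23) was -2.72 without spike replicate 1 and 4.13 without spike replicate 2. As its embryo and root libraries hold 0 tags, the size and sign of this value depend on the fit and say nothing of its level. Over all genes of chromosome 1A, 93 were called higher and 3 lower than in the other tissues, against 39 and 43 by DESeq2, 37 and 7 with the replicate block, 46 and 2 with clusters widened by 100 bp, 10 lower without TMM and 5 lower with at least 50 tags. Against seedling 39 were called higher and 21 lower, beside 73 and 143 by DESeq2 and 33 and 27 with the replicate block. With 1 library left out, the first comparison called between 10 and 133 genes higher and 0 to 11 lower, and that with seedling between 9 and 51 higher and 1 to 31 lower. Replicate numbers do not pair the CAGE libraries, whose same-numbered deviations correlated between -0.053 and 0.0686. Where 1 spike library is left, it is taken to vary like the other tissues. Depth limits the 0 counts in CAGE to the bounds given.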
